A study of Mus musculus with 20 samples.

Results

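Replication-dependent histone genes were examined in mouse liver by RNA sequencing, before and after partial hepatectomy (PHx), the surgical removal of part of the liver that sets off regrowth of the rest. They were taken as all protein-coding genes whose GENCODE M21 symbol starts with Hist1h, Hist2h, Hist3h or Hist4h. The rule finds 67 genes, and 65 of them have a row among the 46603 gene identifiers in the count tables; Hist1h2bh and Hist1h2bm were not analysed here. The 65 comprise 6 genes of the linker histone H1, 18 of H2A, 16 of H2B, 12 of H3 and 13 of H4. Of these, 52 lie on chromosome 13, 10 on chromosome 3, 2 on chromosome 11 and 1 on chromosome 6.

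Replication-dependent histones package newly made DNA, and their genes are transcribed mainly while a cell copies its genome. Their mRNAs end in a short stem-loop bound by the protein SLBP instead of a poly(A) tail, so a library made from poly(A) RNA holds only their polyadenylated transcripts and whatever tail-free RNA is carried through the selection. A few of these genes are also known to give polyadenylated mRNA in cells that do not divide. Replication-independent variants, such as H3.3 and H2A.Z, come from separate genes with ordinary polyadenylated mRNA.

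The samples were livers of 10 male mice aged 2 months, and each mouse gave 1 sample before and 1 after PHx. Wild-type (WT) mice were 5 C57BL/6J animals bought from a vendor. The other 5 were EedHepKO mice (KO), in which Cre recombinase under the albumin promoter, active in hepatocytes, removes loxP-flanked parts of Eed at exons 3 and 6; these came from crosses that were inbred further. EED is a core subunit of polycomb repressive complex 2, which methylates histone H3. Baseline samples were lobes 1, 2 and 3, taken at the operation, and the later samples were lobes 4, 5 and 6, collected in each genotype at 30 h (1 mouse), 40 h (2 mice) and 48 h (2 mice). The 4 groups therefore hold 5 libraries each, named here by the number of the mouse. Genotype and colony cannot be told apart, nor can PHx and lobe. In bulk tissue, fewer cells of a type and less RNA per cell cannot be told apart either.

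Levels are CPM, the read count of a gene relative to the library total scaled with edgeR's TMM factors, and total counts ran from 21634890 to 30461351 per library. Eed itself ran from 14.6 to 23.2 CPM in the 10 WT libraries and from 2.74 to 7.52 CPM in the 10 KO libraries, so the targeted gene followed the labels. Genes that define hepatocytes, such as Alb and Apoa1, were detected in all groups, and the 10 on that list summed to between 50015 and 154479 CPM. One library stood apart before any histone result. WT baseline replicate 1 held 405 CPM of short non-coding RNAs without a poly(A) tail (small nuclear, nucleolar and related RNAs), while the other 19 libraries held 11.4 to 60.2 CPM. In it Rn7sk, the 7SK RNA, had 88.2 CPM, Rmrp, an RNA of a ribonuclease, 48.9 CPM and Rpph1, the RNA of ribonuclease P, 28.9 CPM. Over the other 19 libraries the highest values of these 3 RNAs were 1.29, 0.51 and 1.31 CPM. Where it moved a value of a member printed here by over 1.5 times, the value is given with and without it.

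The annotated transcripts were searched for the stem-loop of the tail-free ending. A search of the M21 transcripts (mm10) after the stop codon found a 16-base stem-loop in 44 of the 65 members, and in 44 of the 50 whose model runs at least 16 bases past the stop codon. Among 21458 other protein-coding genes with counts, searched over whole transcripts, 18 held such a match (0.0839%). In members it began 21 to 58 bases after the stop codon, with a median of 31.5. In 22 of the 44 the model runs 100 or more bases past the stem-loop. Past it the model of Hist1h1c runs 840 bases and that of Hist1h4i 330. Both have a polyadenylation signal, AATAAA or ATTAAA, in the last 50 bases. A match does not show where the mRNA ends, and a missing match does not show that the ending is absent. The transcripts of the genes that the results turn on are written from 5′ to 3′ with the stem-loop in capitals, because they differ in the middle pairs of the stem and in the loop.
Hist1h1c: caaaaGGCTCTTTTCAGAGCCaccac
Hist2h3c2: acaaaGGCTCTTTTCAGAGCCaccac
Hist1h4h: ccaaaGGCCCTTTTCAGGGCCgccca
Hist1h4i: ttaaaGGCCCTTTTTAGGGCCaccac
The form of Hist1h1c and Hist2h3c2 was the commonest and stood in 26 of the 67 genes of the rule, from all classes but H4. The form of Hist1h4h was found in 7 genes, all of H4, and that of Hist1h4i in 2, also H4. No match was found in the annotated transcripts of Hist1h2bc and Hist2h2be, 2 of the most abundant members.

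Reads from the family came mostly from 2 genes. Over the 20 libraries the 65 members held 81246 counts, of which Hist1h2bc (ENSMUSG00000018102, chromosome 13, 23684199 to 23692908), an H2B gene, held 58.2% and Hist1h1c (ENSMUSG00000036181, chromosome 13, 23738808 to 23740367), which encodes linker histone H1.2, held 33.9%. Both together gave 92.1%. Per kilobase of annotated exon, the mean over all libraries was 86.2 CPM for Hist1h2bc and 34.5 CPM for Hist1h1c, followed by 4.46 CPM for Hist1h4h and 2.75 CPM for Hist1h4i. The next on this per-length scale were Hist2h2be with 0.91 CPM and Hist2h2aa2 with 0.82 CPM. At the other end, 53 members had under 100 counts in all 20 libraries together, 16 had under 10, and Hist1h2aa, Hist2h2aa1 and Hist2h3c1 had none. A library with a count of 0 allows up to 3 counts, which is 0.0658 to 0.195 CPM depending on the library and covers counting error only.

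**Figure D1:**
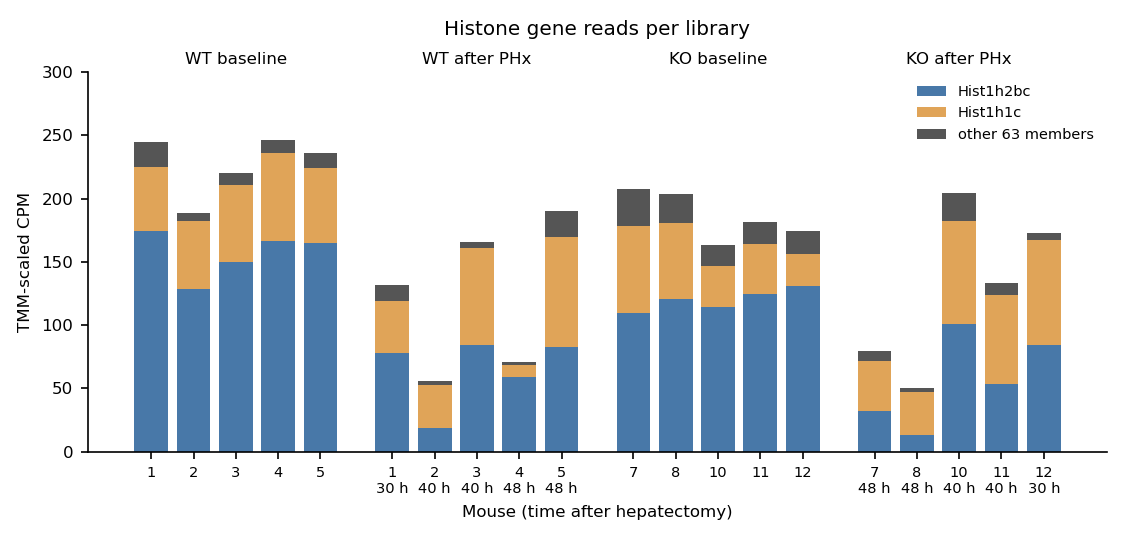
Bars show, for each of the 20 libraries, the TMM-scaled CPM of Hist1h2bc, Hist1h1c and the other 63 members stacked from 0, with the mouse number and the hours after hepatectomy under each bar. Hist1h2bc and Hist1h1c make up most of every bar, and the bars after PHx are uneven, from 50.7 to 204 CPM.

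The filter on low counts, applied to all genes with the 4 groups as design, left 12 members for testing: Hist1h1c, Hist1h1d and Hist1h1e of H1, Hist2h2aa2 and Hist3h2a of H2A, Hist1h2bc, Hist1h2be, Hist1h2bg and Hist2h2be of H2B, Hist2h3c2 of H3, and Hist1h4h and Hist1h4i of H4. The other 53 were not tested and held 1340 counts, 1.65% of the total. Annotated 3′ ends differed between these sets as a description. The median length after the stop codon was 811 bases in the 12 tested members and 78 in the 53 others. A polyadenylation signal, AATAAA or ATTAAA in the last 50 bases, was present in 6 of 12 and in 11 of 53. Over all 65 members it was present in 26.2%, against 78.6% of the 21458 other protein-coding genes. Model length itself differs with annotation, and the models of 15 members without a stem-loop match run under 16 bases past the stop codon.

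**Figure D2:**
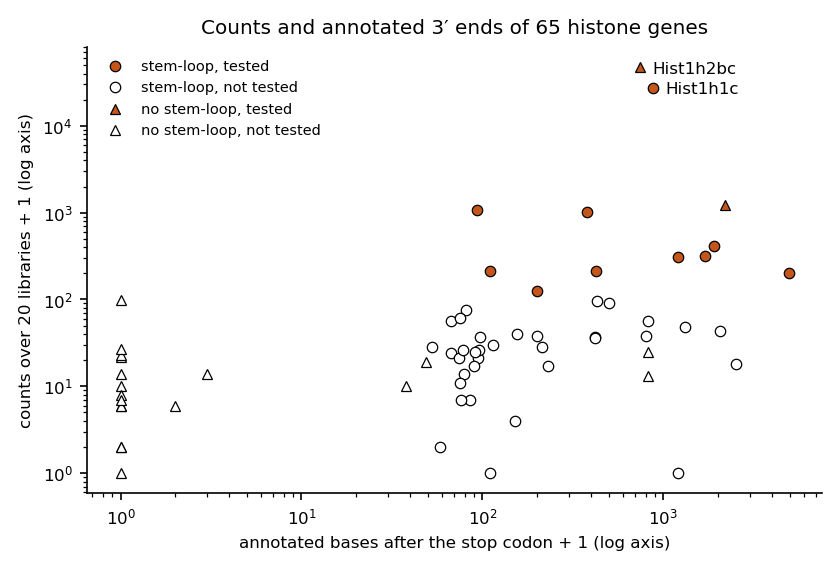
Each point is 1 of 65 members, with the annotated bases after the stop codon on the x axis and the counts over 20 libraries on the y axis, both plus 1 and on log axes. Circles hold a stem-loop match and triangles do not, and filled points are the 12 members tested; Hist1h2bc and Hist1h1c stand far above the rest.

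Near-identical copies limit the values of single members, because only uniquely mapped reads were counted. Of the 65 members, 6 shared every 100-base stretch of their transcript with transcripts of other genes, on either strand. With these included, 28 were unique over less than 50% of their transcript. Both counts include genes annotated at the same place, where the shared bases are not a copy. Among the 6, Hist2h3b and Hist2h2bb shared most with Gm20628, which overlaps their exons on the other strand. Hist2h2aa2 is one of the 6, so its counts are uncertain. The unique share was 94.9% for Hist1h1c, 84.9% for Hist1h4i, 74.6% for Hist1h2bc, 61.5% for Hist1h4h and 38.4% for Hist2h3c2. Exons of 24 members overlap another annotated gene. Hist1h1e and Hist1h2be overlap each other and Gm11398, and Hist3h2a overlaps Trim17, so these 3 are uncertain as well. The strand setting of the counting is not given in the sources used here.

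Promoters share sequence features that the choice of genes did not use. RefSeq windows of 300 bases, 250 before to 50 after the start (GRCm38.p6), were matched for 60 members. On either strand, CCAAT was present in 51 of 60 (85%, against 37.8% of 26965 other promoters), and TATAAA in 35 (58.3%, against 14.1%). TTTCGCGC, a form of the motif of E2F factors, was present in 9 (15%, against 0.286%), and GCGCCAAA, another form, in none (against 0.538%). The windows of the 2 tested H4 genes follow, because the results below turn on these genes; capitals mark TATAAA.
Hist1h4h, chr13:23530794-23531093, plus strand: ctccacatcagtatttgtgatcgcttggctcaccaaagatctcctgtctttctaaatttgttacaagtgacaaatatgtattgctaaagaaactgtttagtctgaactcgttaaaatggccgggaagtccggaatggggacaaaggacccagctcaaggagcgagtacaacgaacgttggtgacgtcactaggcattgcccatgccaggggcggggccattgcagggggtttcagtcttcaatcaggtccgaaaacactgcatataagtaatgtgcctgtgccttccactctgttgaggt
Hist1h4i, chr13:22041313-22041612, minus strand: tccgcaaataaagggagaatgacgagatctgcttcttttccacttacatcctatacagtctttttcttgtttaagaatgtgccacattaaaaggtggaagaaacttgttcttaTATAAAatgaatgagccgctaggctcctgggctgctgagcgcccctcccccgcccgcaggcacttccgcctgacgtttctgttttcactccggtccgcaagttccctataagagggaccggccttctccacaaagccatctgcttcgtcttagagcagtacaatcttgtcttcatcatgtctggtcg
In the Hist1h4h window none of the 4 motifs was found, and in that of Hist1h4i only TATAAA was. Absence of these letters from a window says nothing about binding.

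H4 forms the core of the nucleosome with H3, H2A and H2B, and summed H4 reads were higher in every KO than in every WT library at baseline. Summed over the 13 H4 genes, WT baseline libraries held 2.00, 3.29, 3.71, 3.81 and 7.41 CPM, the last being replicate 1, and KO baseline libraries held 7.93, 8.10, 10.5, 11.9 and 13.3 CPM. Of the sums of the other classes, H3 ran from 0.25 to 1.24 CPM in WT and from 1.14 to 2.65 CPM in KO, and H2A from 1.03 to 2.14 and from 1.45 to 2.39 CPM, so both overlapped, as did H1 and H2B. With library size alone, H3 ran from 0.20 to 1.00 in WT and from 1.21 to 3.15 CPM in KO, and H2A from 0.78 to 1.44 and from 1.54 to 2.76 CPM, so neither overlapped, and H4 did not either (1.59 to 4.96 and 8.43 to 15.8 CPM). Of single genes, 15.6% were higher in KO without overlap with TMM scaling. Most of the H4 sum came from Hist1h4h and Hist1h4i, which are given singly below. Their means were 1.35 and 1.76 of 4.04 CPM in WT and 4.68 and 4.00 of 10.3 CPM in KO. The class sums are descriptions and were not tested.

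Hist1h4h (ENSMUSG00000060981, chromosome 13, 23531050 to 23531519) had 2.99, 1.00, 0.62, 1.24 and 0.92 CPM in WT baseline replicates 1 to 5. In KO baseline replicates 7, 8, 10, 11 and 12 it had 6.87, 5.58, 3.34, 2.82 and 4.79 CPM. The groups overlap through WT replicate 1 alone, which lies between the lowest KO values. The log2 fold change of KO against WT was 1.80 (SE 0.63), and its adjusted p of 0.0564 (edgeR quasi-likelihood test, Benjamini-Hochberg over 14661 genes) missed the threshold of 0.05. In 17 of 25 other settings it stayed uncalled, with an edgeR adjusted p of up to 0.132. Over the 25 the log2 fold change ran from 1.61 to 2.34. Without WT baseline replicate 1 the log2 fold change was 2.30 with an adjusted p of 0.0284. With the short RNA level of each library as a covariate it was 2.27 with an adjusted p of 0.0204. It was also called with library size alone (2.34, adjusted p 0.0114), with only the baseline samples fitted (1.84, adjusted p 0.0031), and without WT replicate 1 (adjusted p 0.0470), WT replicate 3 (0.0183) or KO replicate 7 (0.0470) after PHx, where the value was 1.80 to 1.85.

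Hist1h4i (ENSMUSG00000060639, chromosome 13, 22040636 to 22041362) had 0.85 to 2.34 CPM in WT at baseline, with a median of 1.80, and 3.55 to 4.58 CPM in KO, with a median of 3.93. Each KO library was above each WT library, as was so for 15.6% of all genes tested. The log2 fold change was 1.18 (SE 0.76, adjusted p 0.306 by edgeR). It was called only when the 10 baseline samples were fitted alone (1.21, adjusted p 0.0021 by edgeR).

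At baseline 0 of the 12 tested members passed the threshold in KO against WT with edgeR, where 16% of all genes did (11.1% higher and 4.89% lower); 1 had an unadjusted p under 0.05, and DESeq2 called 1 member, Hist1h4h (1.82, adjusted p 0.0104). The median log2 fold change of the 12 was 0.40, against -0.03 over all genes tested, with 9 above 0 and 3 below. The signs of Hist1h1c, Hist1h1e, Hist1h2bc, Hist1h2bg and Hist2h2aa2 turned under at least 1 setting. Among those not called, Hist1h1d, which encodes linker histone H1.3, had 1.60 (SE 0.82) and Hist2h3c2 had 1.26 (SE 0.92). The 2 abundant members lay on the other side of 0. Hist1h2bc had 157 ± 18.1 CPM in WT and 120 ± 8.43 CPM in KO (SD, n = 5), with a log2 fold change of -0.38 (SE 0.39, adjusted p 0.543 by edgeR), and Hist1h1c had -0.39 (SE 0.42, adjusted p 0.564 by edgeR). Scaling by library size alone turned both to 0.10 and 0.11, since it moves the median of all genes by 0.48 in this comparison. When only the 10 baseline samples were fitted, Hist1h2bc was called lower (-0.36, adjusted p 0.0137) and Hist1h1d was called higher (1.65, adjusted p 0.0125).

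**Figure D3:**
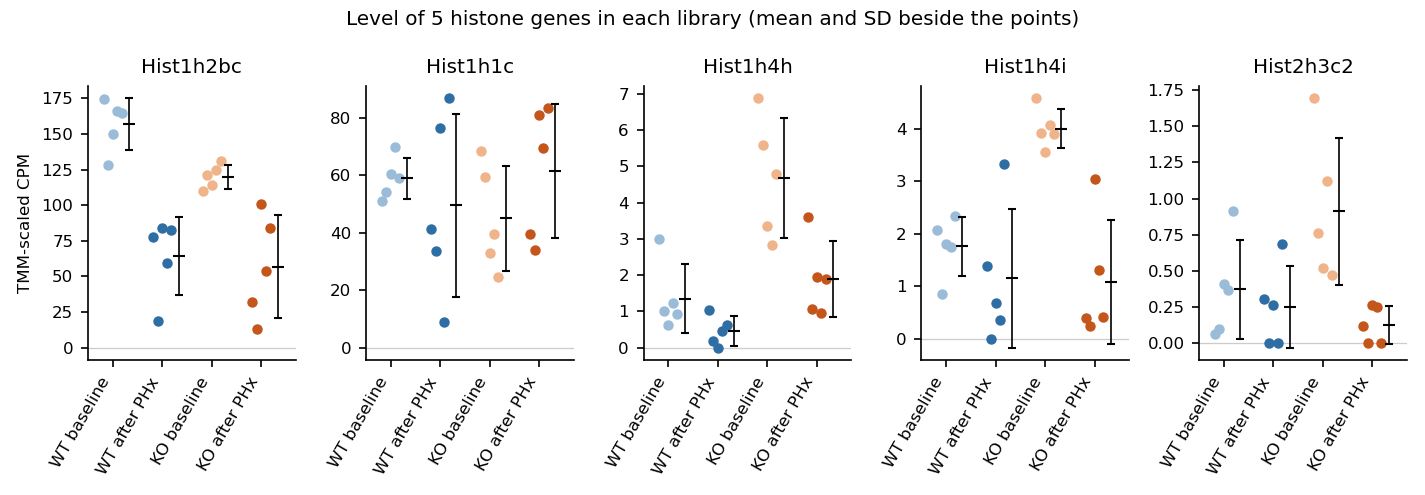
Points are the TMM-scaled CPM of single libraries for 5 members in the 4 groups, with the group mean and SD in black beside them. Hist1h4i in KO at baseline lies above all WT baseline libraries, and Hist1h2bc after PHx lies below the baseline libraries of its genotype in all 5 mice of each.

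Cell type markers differed between the genotypes at baseline as well. Macrophage markers were called higher in KO for 5 of 10 genes, and their sum ran from 173 to 301 CPM in WT and from 441 to 552 CPM in KO. Stellate cell markers were called higher for 6 of 8, with sums of 161 to 259 and 431 to 548 CPM. Cholangiocyte markers were called higher for 2 of 8, with sums of 23.4 to 59.8 and 68.1 to 376 CPM. Hepatocyte markers were called lower for 2 of 10, with sums of 134136 to 154479 in WT and 90874 to 118669 CPM in KO. None of the markers of these 4 lists was at 0 in all libraries of a group. Endothelial markers were called higher for 1 of 10, erythroid markers lower for 1 of 7 and neutrophil markers higher for 2 of 3 tested genes, with Ly6g at 0 in both groups. B and plasma cell markers (5 tested) and T and NK cell markers (4 tested) had 0 calls. Their part in the histone values was not tested.

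After PHx the question is whether livers that regrow without EED differ from WT livers in histone mRNA. Of the 12 members 1 was called, Hist1h4h, which was higher in KO; over all genes tested 16% were called higher and 8.2% lower. Its 5 WT libraries held 1.05, 0.17, 0.00, 0.46 and 0.62 CPM in replicates 1 to 5, from 24, 4, 0, 13 and 18 counts. Its 5 KO libraries held 3.59, 1.07, 1.94, 0.97 and 1.89 CPM in replicates 7, 8, 10, 11 and 12. The lowest KO library lies below the highest WT library, so the groups overlap at that one point, and 0 of the 12 members had groups that did not overlap (7.05% of all genes did in the higher direction and 2.98% in the lower). The log2 fold change was 2.03 (SE 0.65, adjusted p 0.0274 by edgeR), and 2.43 (adjusted p 0.0092) with the time after PHx as a term. Without WT replicate 2 the adjusted p was 0.0591, without KO replicate 7 it was 0.0773, and with only the 10 samples after PHx fitted it was 0.137.

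The other 11 tested members were not called, with log2 fold changes of -0.97 for Hist2h3c2 to 1.10 for Hist1h1d. Leaving out 1 library gave -1.42 to -0.15 for Hist2h3c2, and over all settings Hist1h1d ran from 0.18 to 1.64. The median of the 12 was 0.35, against -0.01 over all genes. The Hist1h2bc value was -0.18 (SE 0.39), and that of Hist1h1c 0.31 (SE 0.41). Hist1h4i, which was higher in every KO library at baseline, had 0.00 to 3.33 CPM in WT and 0.24 to 3.05 CPM in KO after PHx, with a log2 fold change of -0.10 (SE 0.76). Without the filter on low counts, 1 member was called lower in KO, Hist1h3c, which was picked out after its values were seen. It had 4, 0, 1, 0 and 12 counts in the WT libraries and 0 in all 5 KO libraries. Cholangiocyte markers were called higher in KO for 6 of 8 genes in this comparison, with sums of 21.4 to 240 CPM in WT and 126 to 624 CPM in KO. Macrophage markers were called higher for 4 of 10 and stellate cell markers for 3 of 8, and erythroid markers were called lower for 4 of 7. Their part in the Hist1h4h value was not tested.

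**Figure D4:**
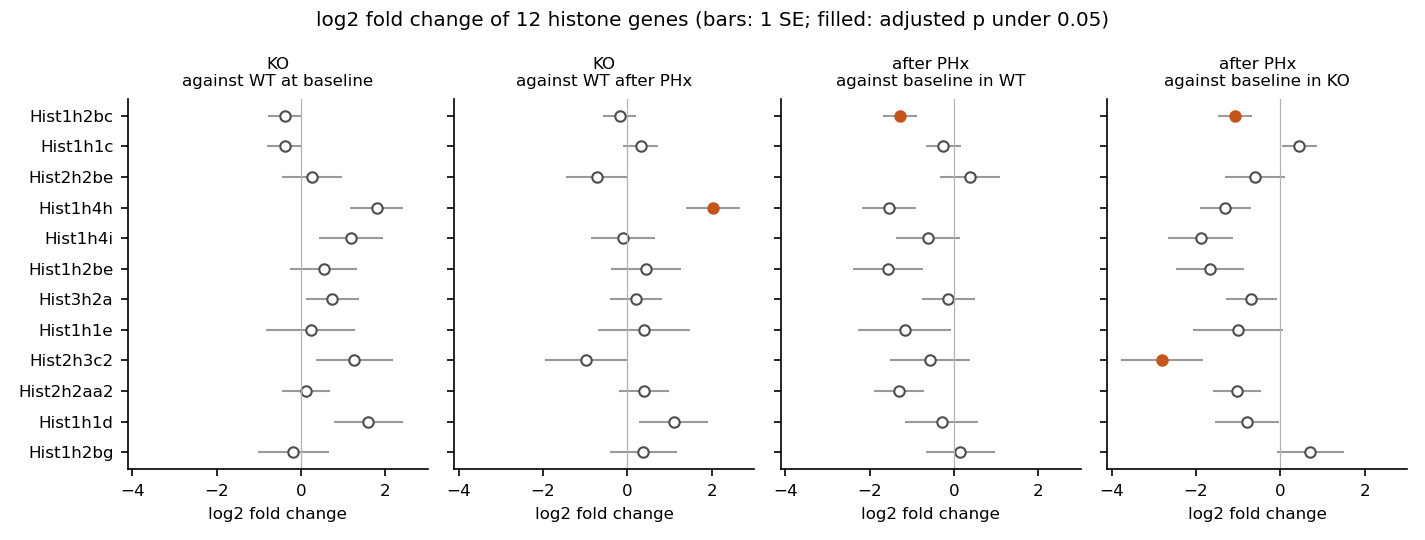
Points are the log2 fold changes of the 12 tested members in 4 comparisons, with bars of 1 SE, and filled points have an edgeR adjusted p under 0.05. Filled points are Hist1h4h in KO against WT after PHx (2.03), Hist1h2bc after PHx in both genotypes (-1.28 and -1.08) and Hist2h3c2 after PHx in KO (-2.80).

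The PHx response asks how histone mRNA changes in regrowing liver, at times when hepatocytes are known to enter S phase. Hist1h2bc fell in both genotypes. In WT it went from 174, 128, 150, 166 and 165 CPM in replicates 1 to 5 at baseline to 77.8, 19.1, 84.3, 59.3 and 82.5 CPM after PHx. In KO it went from 110, 121, 114, 125 and 131 CPM in replicates 7, 8, 10, 11 and 12 to 32.4, 13.4, 101, 53.8 and 83.9 CPM. All 10 mice had less after PHx than before, and the groups of a genotype do not overlap, as was so in this direction for 10.9% of all genes in WT and 7.74% in KO. The log2 fold change was -1.28 (SE 0.40, adjusted p 0.0292 by edgeR) in WT and -1.08 (SE 0.40, adjusted p 0.0470 by edgeR) in KO. It was the 1 tested member called in WT, where 20.1% of all genes were called (11.4% higher and 8.68% lower), and 1 of 2 in KO, where 29.5% were called (17.5% higher and 12.1% lower). No tested member was higher after PHx without overlap, as 6.9% of all genes were in WT and 6.18% in KO.

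Both calls are close to the threshold. In WT the call was lost in 6 of the 20 fits that leave out 1 library, those without WT baseline replicates 1, 4 and 5, WT after PHx replicates 2 and 4 and KO baseline replicate 7 (adjusted p 0.0505 to 0.0841). In KO it was lost in 17 of the 20 (adjusted p 0.0503 to 0.134), and it was kept without WT after PHx replicate 2 and without KO after PHx replicates 10 and 12. The log2 fold changes in all fits stayed between -1.43 and -0.89 in WT and between -1.39 and -0.81 in KO. Scaling by library size alone shifted the median of all genes by 0.36 in WT and 0.27 in KO. It left Hist1h2bc at -0.89 (adjusted p 0.0792) and -0.91 (adjusted p 0.0665). The KO call was also lost with only the samples compared (adjusted p 0.103), with no filter on low counts (0.0663) and with the short RNA covariate (0.0632), and the WT call with no filter (0.051).

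Hist1h1c, the linker histone gene, was not called in either genotype. It had 51.1 to 69.9 CPM in WT at baseline and 9.14 to 86.8 CPM after PHx, and 24.8 to 68.6 CPM in KO at baseline and 33.9 to 83.4 CPM after PHx. The log2 fold change was -0.25 (SE 0.41) in WT and 0.45 (SE 0.42) in KO, with edgeR adjusted p of 0.717 and 0.420. In WT it turned to 0.13 with library size alone. Of the WT mice, 2 had more and 3 had less Hist1h1c after PHx, and of the KO mice 3 had more and 2 had less. The spread between libraries after PHx was wide, 49.6 ± 31.9 CPM in WT and 61.5 ± 23.3 CPM in KO (SD, n = 5).

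In KO, Hist2h3c2 (ENSMUSG00000081058, chromosome 3, 96238108 to 96239127), an H3 gene, also fell. It had 1.69, 0.76, 0.52, 1.12 and 0.47 CPM at baseline and 0.12, 0.00, 0.27, 0.25 and 0.00 CPM after PHx in replicates 7, 8, 10, 11 and 12. The groups do not overlap, as for 7.74% of all genes in this direction, and they rest on 121 counts in all against 20. The log2 fold change was -2.80 (SE 0.98, adjusted p 0.0374 by edgeR). It was lost without any 1 of KO baseline replicates 7, 8 and 11 or KO after PHx replicates 7, 8 and 12 (adjusted p 0.0529 to 0.0844), with library size alone (adjusted p 0.0546) and with no filter on low counts (adjusted p 0.0561). In WT its log2 fold change was -0.56 (SE 0.95).

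The other H4 gene of the tested set, Hist1h4i, was lower after PHx in each KO mouse. It went from 3.55 to 4.58 CPM at baseline to 0.24 to 3.05 CPM, with no overlap, and in this direction 7.74% of all genes tested had groups that did not overlap. Its log2 fold change was -1.89 (SE 0.77, adjusted p 0.0687 by edgeR), and with each mouse as a block it was -2.50 (adjusted p 0.0312). It was also called by DESeq2 (-1.87, adjusted p 0.0324), without KO replicate 10 after PHx (-2.75, adjusted p 0.0107) and without WT replicate 2 after PHx (-1.89, adjusted p 0.0285). Hist1h4h was lower in all 10 mice after PHx, with log2 fold changes of -1.54 (SE 0.65, adjusted p 0.0996 by edgeR) in WT and -1.30 (SE 0.61, adjusted p 0.11 by edgeR) in KO. With each mouse as a block the WT value was -1.83 (adjusted p 0.0369), which makes 2 members called lower in WT in place of 1. Without WT baseline replicate 1 the WT value was -1.03 (adjusted p 0.297), and without WT replicate 1 after PHx it was -2.07 (adjusted p 0.0392). The H2B gene Hist1h2be, with -1.56 in WT and -1.66 in KO, was not called in either. It was called in WT without replicate 5 after PHx (-2.59, adjusted p 0.0475) and in KO without replicate 10 after PHx (-2.45, adjusted p 0.0296).

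Of the 12 tested members, 10 had a log2 fold change below 0 after PHx in WT and the same number in KO. In WT, Hist1h1c, Hist1h1d, Hist1h1e, Hist2h3c2 and Hist3h2a went above 0 under at least 1 setting, and in KO none of the 10 did. The median was -0.58 in WT, against 0.04 over all genes, and -1.01 in KO, against 0.10. Hist2h2be (0.39) and Hist1h2bg (0.16) were above 0 in WT, and Hist1h1c (0.45) and Hist1h2bg (0.71) in KO; none of these was called, and Hist2h2be in WT and Hist1h2bg in both genotypes went below 0 under at least 1 setting. Hist1h1e, which encodes linker histone H1.4, shows the weight of 1 library. It had 3.25 CPM in WT baseline replicate 1 and at most 0.28 CPM in the other 4, and its log2 fold change in WT was -1.17 with that library and 0.84 without it (edgeR adjusted p 0.489 and 0.652). In KO against WT at baseline it was 0.23 with that library and 2.23 without it (edgeR adjusted p 0.913 and 0.188).

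The responses of the genotypes were compared as the difference of their log2 fold changes, KO minus WT. Of the 12 members 0 were called by edgeR, 0 had an unadjusted p under 0.05 and DESeq2 called 0, where 0.389% of all genes were called (0.164% higher and 0.225% lower). The values ran from -2.24 (SE 1.35) for Hist2h3c2 to 0.70 (SE 0.59) for Hist1h1c, and Hist1h2bc had 0.20 (SE 0.56). Leaving out 1 library gave -2.89 to -1.48 for Hist2h3c2 and 0.37 to 0.95 for Hist1h1c. Hist1h4h had 0.24 (SE 0.86), and -0.27 without WT baseline replicate 1. The SEs of this difference ran from 0.56 to 1.5, and a value as large as that of Hist2h3c2 did not pass the test.

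Markers of several cell types moved with PHx. B and plasma cell markers were called lower for 4 of 5 tested genes in each. Their sums went from 9.36 to 18.6 CPM at baseline to 0.53 to 3.92 CPM in WT, and from 10.6 to 12.7 CPM to 1.05 to 4.77 CPM in KO. T and NK cell markers were called lower for 3 of 4 tested genes in WT and 4 of 4 in KO. Hepatocyte markers were called lower for 2 of 10 in WT and 3 of 10 in KO, and endothelial markers for 2 of 10 in WT and 3 of 10 in KO, where 1 was called higher. Macrophage markers were called higher for 2 of 10 and lower for 1 in WT, and higher for 1 and lower for 3 in KO. Stellate cell markers were called lower for 3 of 8 in KO and for 0 in WT. Cholangiocyte markers were called higher for 4 of 8 in KO and for 0 in WT. Neutrophil markers were called higher for 2 of 3 tested genes in WT, where their sum went from 1.10 to 1.82 CPM at baseline to 1.89 to 42.03 CPM, and for 0 in KO. Erythroid markers were called higher for 1 of 7 and lower for 1 in WT, and lower for 1 in KO. The part of these cells in the fall of Hist1h2bc was not tested.

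Genes of DNA replication give a view of S phase that does not depend on histone mRNA. The summed level of a list of 42 such genes was 222 to 318 CPM in WT at baseline and 176 to 292 CPM in KO. After PHx it was 2323 CPM in WT replicate 1 (30 h) and 939 CPM in WT replicate 5 (48 h), and 164 to 270 CPM in the other 3 WT libraries. In KO it was 1918 CPM in replicate 10 and 657 CPM in replicate 11 (both 40 h), and 341 to 363 CPM in the others. Of the 42 genes 28 were called higher and 1 lower after PHx in WT, with a median log2 fold change of 2.68. In KO 8 were called higher and 0 lower, with a median of 1.56. Of all genes 11.4% were called higher in WT and 17.5% in KO. Between the genotypes 1 was called lower in KO at baseline and 0 were called after PHx, and the difference of the responses gave 0 calls. At baseline the median log2 fold change of the 42 in KO against WT was 0.75, against -0.03 over all genes. The summed levels of the genotypes overlapped there. After PHx this median was -0.34, against -0.01 over all genes. For the difference of the responses it was -1.005, against 0.001. The part of these genes in the H4 values at baseline was not tested.

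Histone reads were set beside these values in the 4 libraries with high replication genes. Summed over the 63 members other than Hist1h2bc and Hist1h1c, those libraries held 12.7 CPM (WT replicate 1), 20.5 CPM (WT replicate 5), 22.1 CPM (KO replicate 10) and 9.62 CPM (KO replicate 11). The other 6 libraries after PHx held 2.44 to 7.96 CPM, so within PHx the 4 were the highest. WT baseline libraries held 6.40 to 19.3 CPM, or 6.40 to 11.9 CPM without replicate 1, which stood apart in short RNA. WT replicate 5 was thus above all WT baseline libraries, and WT replicate 1 above all but that one. KO baseline libraries held 16.2 to 28.95 CPM, so KO replicate 10 lay among them and KO replicate 11 below them. The 53 members too low to test summed to 3.18 CPM in WT replicate 1, 4.94 CPM in WT replicate 5, 5.99 CPM in KO replicate 10, the highest of all 20 libraries, and 2.72 CPM in KO replicate 11. WT baseline libraries held 1.00 to 2.16 CPM of these 53 without replicate 1, and replicate 1 held 4.81 CPM. KO baseline libraries held 2.48 to 5.15 CPM. The number of members with at least 1 count was 37, 44, 50 and 37 in the 4 libraries and 13 to 30 in the other 6 after PHx.

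Single low members followed the same 4 libraries in part. Hist1h4k, the H4 gene with the third highest mean level, had 17, 9, 18 and 8 counts in them and 0 to 7 in the other 6 after PHx, but 13 and 11 counts in KO baseline replicates 8 and 11. Hist1h2ac, of H2A, had 0, 9, 6 and 1 counts in them and 10 in KO baseline replicate 12. The H3 genes Hist1h3d and Hist1h3f had 37 and 36 counts over all 20 libraries, with no library above 7.

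**Figure D5:**
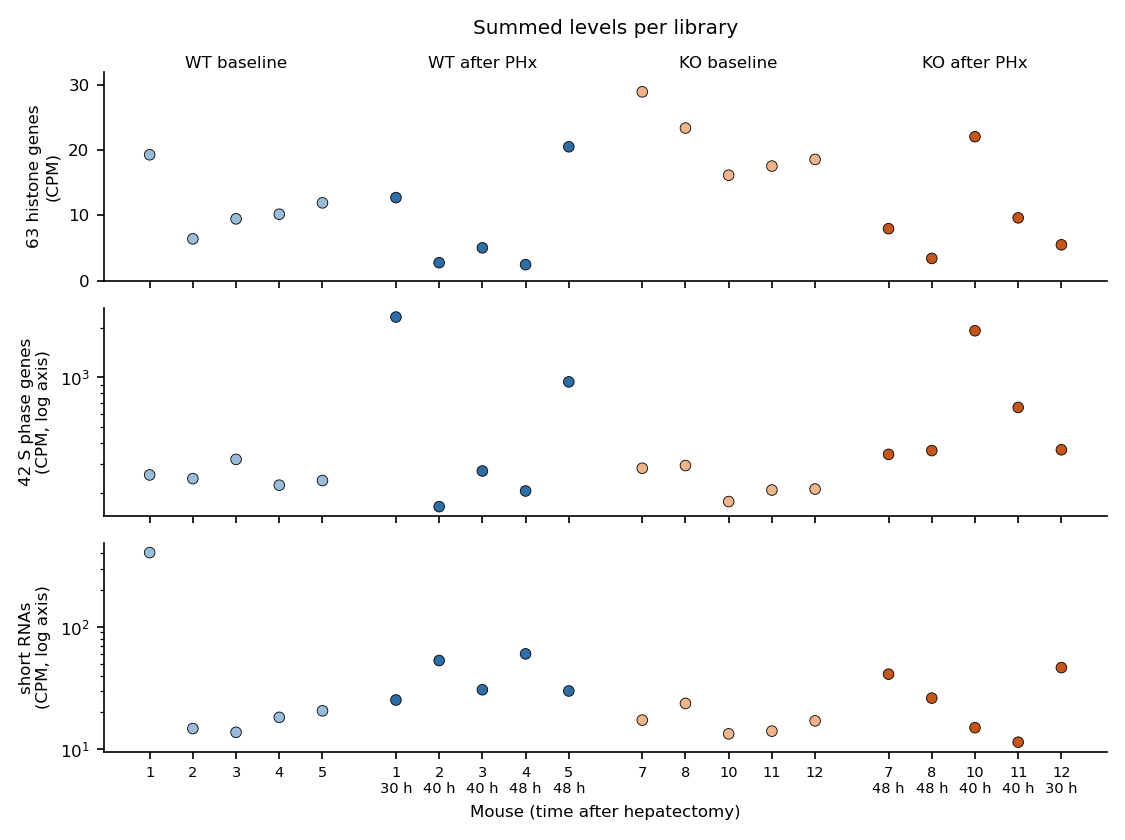
Points show, for each library, the summed CPM of 63 members (all but Hist1h2bc and Hist1h1c, linear axis from 0), of 42 S phase genes (log axis) and of short RNAs without a poly(A) tail (log axis). WT replicates 1 and 5 and KO replicates 10 and 11 after PHx stand high in S phase genes, and WT baseline replicate 1 stands high in short RNAs.

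Short RNA was followed in each library, since tail-free histone mRNA could be carried through the poly(A) selection along with it. Beside the 405 CPM of WT baseline replicate 1, that library held 19.3 CPM of the 63 members, against 6.40 to 11.9 CPM in the other 4 WT baseline libraries. Hist1h2bc and Hist1h1c there, at 174 and 51.1 CPM, were the highest and the lowest of their group. In the other 3 groups the libraries with the most short RNA were WT replicate 4 (60.2 CPM), KO baseline replicate 8 (23.7 CPM) and KO replicate 12 after PHx (46.5 CPM). They held 2.44, 23.4 and 5.49 CPM of the 63 members. These were the lowest of WT after PHx, the second highest of KO at baseline and the second lowest of KO after PHx. Small nucleolar RNAs made 47.7, 16.1 and 36.7 CPM of the short RNA in these 3 libraries. In WT baseline replicate 1 they made 59.7 CPM. Rn7sk in the same 3 libraries had 0.67, 0.30 and 1.18 CPM. Whether their short RNA reflects carry-over was not tested, nor was the part of carry-over in the histone values.

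Of 17 genes with counts that make and finish histone mRNA, 3 were called higher after PHx in WT and 3 in KO, where 11.4% and 17.5% of all genes were. The median log2 fold change of the 17 was 0.36 in WT and 0.23 in KO, against 0.04 and 0.10 over all genes. Slbp, whose product binds the stem-loop, had 7.28 to 13.8 CPM in WT at baseline and 10.7 to 49.8 CPM after PHx (log2 fold change 1.08, SE 0.36, adjusted p 0.0400 by edgeR), and in KO the log2 fold change was also 1.08 (SE 0.36, adjusted p 0.0299 by edgeR). The Slbp call was lost under 7 of 26 settings in WT and 6 of 26 in KO, among them each mouse as a block (0.85, adjusted p 0.176, and 0.99, adjusted p 0.0877). Without WT replicate 1 after PHx the WT value was 0.56 (adjusted p 0.186). Npat, a coactivator of histone gene transcription, was called in KO (1.71, SE 0.36, adjusted p 0.0027 by edgeR), and so was Pou2f1 (0.88), which encodes the factor OCT1; the Pou2f1 call was lost under 6 of 26 settings, the block among them (adjusted p 0.0654). Zfp473, a zinc finger gene of the histone 3′ end machinery (3.53), and Cstf2, of the cleavage machinery (0.57), were called in WT. Zfp473 was lost under 7 of 25 settings: it was 1.92 (adjusted p 0.231) without WT replicate 5 after PHx and 2.37 (adjusted p 0.28) with each mouse as a block. Cstf2 was lost under 7 of 26 (adjusted p 0.0663 with the block). In KO against WT after PHx Upf1, which takes part in histone mRNA decay, was lower (-0.57). That call was lost under 9 of 26 settings, and the value was -0.20 (adjusted p 0.556) with library size alone. Of the 17, 0 were called between the genotypes at baseline.

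Histone chaperones, which carry new histones to DNA, were called higher after PHx for 6 of 17 genes in WT and 8 of 17 in KO, where 11.4% and 17.5% of all genes were. Rbbp4 was called lower in WT (-0.91), but not with library size alone (-0.53, adjusted p 0.0629). The subunits Chaf1a and Chaf1b of chromatin assembly factor 1 had log2 fold changes of 4.04 and 3.93 in WT, and Asf1b, an H3-H4 chaperone, had 4.08. All 3 were highest in WT replicate 1 after PHx, with 45.4, 28.3 and 14.9 CPM. The other WT libraries after PHx held 2.02 to 18.9, 2.98 to 7.31 and 0.43 to 9.41 CPM. Hat1, which acetylates new H4, had 1.55, and Hjurp, the chaperone of the centromeric H3 variant, had 1.13. The Hat1 call in WT was lost without replicate 1 after PHx (1.05, adjusted p 0.0542) and with each mouse as a block (1.25, adjusted p 0.0548), and that of Hjurp under 4 of 26 settings (adjusted p 0.057 to 0.0724). In KO the largest among the called genes were Asf1b (2.70), Chaf1b (2.55), Rbbp7 (1.18), Hat1 (1.17) and Nasp (1.15), an H3-H4 and H1 chaperone; Chaf1a had 2.11 and was not called (adjusted p 0.0539). The KO call of Hat1 was lost under 13 of 26 settings and that of Asf1b under 8. Without KO replicate 10 after PHx they were 0.68 (adjusted p 0.155) and 1.73 (adjusted p 0.132), and with each mouse as a block 1.00 (adjusted p 0.0854) and 2.00 (adjusted p 0.0895). None of the 17 was called between the genotypes at either stage.

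Most replication-independent variants did not pass the test. The 11 genes summed to 654 to 742 CPM in WT at baseline and 623 to 744 CPM in KO. H1fx, which encodes linker histone H1.10, had 0.00 to 0.58 CPM in WT at baseline and 1.27 to 4.64 CPM in KO (log2 fold change 3.46, SE 1.14, adjusted p 0.0432 by edgeR). This call was lost under 9 of 25 settings (adjusted p 0.0512 to 0.0974), the short RNA covariate among them. Its call after PHx in WT (3.65) rests on replicate 5, which had 12.8 CPM while the other 4 had 0.17 to 0.42 CPM, and without it the value was 0.62 (adjusted p 0.621). With each mouse as a block it was 2.20 (adjusted p 0.164). Cenpa, the centromeric H3 variant, was called after PHx in WT (3.22), with 113 CPM in the same library and 0.67 to 14.7 CPM in the others, and without it the value was 1.16 (adjusted p 0.299). With each mouse as a block it was 1.40 (adjusted p 0.334). H2afy2, a macroH2A gene, was higher in KO than in WT after PHx (2.52) and rose in KO (1.70); the second call was lost without KO baseline replicate 11 (adjusted p 0.0555). Of the 27 calls in the lists of variants, processing genes and chaperones, 11 held under every setting tried.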

How the data were processed

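Poly(A) RNA of 20 liver samples was sequenced. The authors deposited whole-number counts of uniquely mapped reads per Ensembl gene, 1 table per sample. FastQC 0.11.5 and Trimmomatic 0.36 are named in the submitters' processing notes; the aligner, counter and strand setting are not given in the sources used here. Replicates are separate mice.

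The members and the gene lists were chosen with earlier results of these data known. GENCODE M21 gave symbols and transcripts, and RefSeq the promoters. Counts were analysed with edgeR 4.0.16 in R 4.3.3: TMM factors, filterByExpr over the 4 groups, and quasi-likelihood tests on all 20 samples without covariates. Benjamini-Hochberg adjustment ran over 14661 genes, with a threshold of 0.05, and each SE is the absolute log2 fold change over the square root of F. The genes named are the 3 members of each class with the highest mean CPM, up to 3 called members per comparison and direction, members with no count, up to 5 called genes per list and comparison with the largest change, Eed, Rn7sk, Rmrp and Rpph1. Hist1h2bg, Hist1h3c and Rbbp4 were named after their values were seen. Counts were simulated with a log2 change of 2 in 200 genes drawn at random from all that passed the filter. The test recovered 72 and 69.5% of them in KO against WT at baseline and after PHx. For the responses in WT and KO it recovered 69 and 70%. Tested members other than Hist1h2bc and Hist1h1c had mean levels of 0.26 to 2.39 CPM, and recovery at such levels was not measured.

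Per the labels each mouse gave both its samples, so the replicate number pairs them; WT baseline replicate 1 carries no mouse number and was taken as mouse 1. Residual correlations within a mouse averaged 0.0456 in WT and 0.0688 in KO. Alternatives were DESeq2 1.42.0, library size alone, no filter, only the samples compared, a replicate block, a short RNA covariate, a time term and leaving out each library.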

Additional observations from a re-analysis of the deposited data

Results flagged for a closer look

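A sample was singled out where its gap to the nearest of the other 4 of its group was more than 0.71 of the group's whole range (Dixon's test). This held in 11 of 96 groups of values examined. Chance gives it in about 1 in 20 for independent, normally distributed values. The groups here are not independent, since sums contain single genes and the same libraries recur. The 11 therefore cannot be set against that share. In WT baseline replicate 1, Hist1h4h had 2.99 CPM against 0.62 to 1.24 in the other 4, and Hist1h1e 3.25 CPM against 0.00 to 0.28. The same library held 405 CPM of short RNAs against 13.7 to 20.6, 88.2 CPM of Rn7sk against 0.45 to 1.13, 48.9 CPM of Rmrp against 0.00 to 0.51 and 28.9 CPM of Rpph1 against 0.14 to 0.60.

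In KO baseline replicate 10 the summed H2A genes had 1.45 CPM against 2.24 to 2.39 in the others. In KO after PHx, replicate 10 had 1.22 CPM of Hist1h1d against 0.088 to 0.42, 3.09 CPM of summed H2A genes against 0.47 to 1.14, and 1918 CPM of summed S phase genes against 341 to 657. Replicate 12 of that group had 1.09 CPM of Hist1h2bg against 0.044 to 0.34.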

How the results depend on the processing

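The counts of called members are small, and settings moved them. For KO against WT at baseline, 0 members were called higher, and the count was 1 with library size alone, 3 with only the samples compared, 1 with the short RNA covariate and 1 with DESeq2 (0 to 1 leaving out 1 library); the count called lower was 1 with only the samples compared (0 in every fit leaving out 1 library). After PHx the count called higher in KO was 0 with only the samples compared (0 to 1 leaving out 1 library), and the count called lower was 1 with no filter. In the WT response the count called lower was 0 with library size alone, 0 with no filter, 2 with the replicate block and 2 with DESeq2 (0 to 2 leaving out 1 library). In the KO response it was 0 with library size alone, 1 with no filter, 1 with the covariate and 3 with DESeq2, against 2 (0 to 4 leaving out 1 library). With the replicate block, which pairs the samples of a mouse, Hist1h2bc was -1.43 (adjusted p 0.026) in WT and -1.36 (adjusted p 0.0277) in KO, and Hist2h3c2 -3.14 (adjusted p 0.0345) in KO. It added the calls of Hist1h4h in WT and Hist1h4i in KO given above. With only the samples compared, the count called lower in the KO response stayed at 2, but Hist1h2bc was lost (adjusted p 0.103) and Hist1h4h was gained (adjusted p 0.0481).

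Signs turned in values that were not called. Of 60 gene and comparison pairs, 26 turned under at least 1 setting, and only some of them are listed here. With library size alone the log2 fold change was 0.11 for Hist1h1c and 0.10 for Hist1h2bc at baseline, 0.077 for Hist1h2bc and 0.17 for Hist1h4i after PHx, 0.13 for Hist1h1c in the WT response and -0.018 for Hist1h2bc in the difference of responses. With the short RNA covariate it was -0.13 for Hist1h4h in that difference. Leaving out 1 library gave -0.27 to 2.23 for Hist1h1e at baseline, -0.50 to 0.080 for Hist1h2bc and -0.97 to 0.85 for Hist1h4i after PHx. In the WT response it gave -0.50 to 0.080 for Hist1h1c, -1.50 to 0.84 for Hist1h1e and -1.33 to 0.082 for Hist2h3c2. In the difference it gave -0.11 to 0.42 for Hist1h2bc and -0.27 to 0.76 for Hist1h4h. The cause was not tested.

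Library size alone moved the share of calls over all genes that were higher from 69.5% to 96.9% at baseline, from 66.1% to 92.9% after PHx, from 56.8% to 86.7% in the WT response, from 59.1% to 80.9% in the KO response and from 42.1% to 15.8% in the difference. The mean histone level at baseline was 227 CPM in WT and 186 CPM in KO, but 173 and 199 CPM with library size alone, which turns the order of the genotypes. Leaving out 1 library gave 222 to 237 CPM in WT at baseline; the ranges were 106 to 140 in WT after PHx, 181 to 192 in KO at baseline and 109 to 148 CPM in KO after PHx. The mean short RNA level was 94.5 CPM in WT before PHx, 39.8 in WT afterwards, 17.1 in KO before and 28 CPM in KO afterwards. With miRNA genes added these 4 means were 5624, 1761, 1589 and 1131 CPM; the first was 839 CPM without replicate 1, then the lowest of the 4, and 1 gene held 96.5% of the miRNA gene counts. For short RNAs alone, leaving out 1 library gave 16.8 to 115, 34.7 to 43.4, 15.4 to 18 and 23.4 to 32.2 CPM in the same order, the lowest of the first being without replicate 1. The 53 untested members had at most 97 counts each in all and did not pass the filter.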
